A study of Mus musculus with 9 samples.

Results

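The IL-1 family genes described here are 8 genes, taken by symbol from a count table of 24411 genes: the ligands Il1a, Il1b and Il18, the antagonists Il1rn and Il18bp, and the receptor chains Il1r1, Il1r2 and Il1rap. RNA was sequenced from primary microglia, the resident macrophages of the brain, grown from whole brains of 3-day-old ICR mice of no stated genotype alteration. All cells were shaken off mixed glial cultures, replated for 24 h and exposed for 4 h to an agent. The R848 group received 1 µM of R848 (resiquimod), a small-molecule agonist of the endosomal RNA sensor TLR7. The IFN-α group received 100 U/ml of recombinant mouse IFN-α, a type I interferon, and the combined group received both agents at those doses. Each group held 3 libraries. An untreated group is not analysed here, so every difference below is between treatments and none is a change from rest. The origin of the replicates is not stated (a culture each, or repeats of one preparation), so p-values reflect only variation among the sequenced libraries, and that variation could be technical.

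IL-1α and IL-1β bind the same receptor, IL-1R1, which needs the accessory chain IL-1RAcP (the product of Il1rap) to signal through MyD88 and IRAK kinases to NF-κB. IL-1β and IL-18 are made as inactive precursors that inflammasome-activated caspase-1 cuts, whereas the IL-1α precursor can already bind the receptor. The family is restrained outside the cell: IL-1Ra, encoded by Il1rn, occupies IL-1R1 without signalling, the decoy receptor IL-1R2 binds IL-1 without signalling, and IL-18 binding protein (Il18bp) captures IL-18. In the brain, microglia are a main source of IL-1, which acts on astrocytes, endothelium and neurons.

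Gene totals ran from 2505941 to 6005578 reverse-strand counts per library, with the highest in combined replicate 3. Of all counts on both strands, 1.09 to 1.50% lay on the forward strand, and the ribosomal RNA gene Rn45s took 13.3 to 26.1% of gene counts. Levels are given as CPM, counts scaled to a common library size with edgeR's TMM factors. All 14 microglial markers had counts in every group, with summed levels of 3512 to 4055 CPM (R848), 5378 to 5879 CPM (IFN-α) and 3927 to 4347 CPM (both agents). Among them Tmem119 was low throughout, with 38, 25 and 5 counts per group, and P2ry12 had 24, 346 and 92. Oligodendrocyte markers summed to 504 to 510, 640 to 768 and 564 to 609 CPM in these groups. Neuron markers summed to 137 to 152, 142 to 176 and 159 to 174 CPM. Astrocyte markers were also present, at 1693 to 1970, 1320 to 1652 and 2616 to 3661 CPM, and 9 of the 11 were called higher in the combined group than with R848 and 6 than with IFN-α. The part of these cell types in the differences given below was not tested, and in bulk samples fewer cells of a type and less RNA per cell cannot be told apart. Of 5 neutrophil markers in the tables, Mpo, Elane and S100a9 had 0 counts in all libraries, while S100a8 had 127 counts with R848, 48 with IFN-α and 88 with both and Camp had 19, 1 and 5. Their summed level was 13.0 to 16.5, 5.07 to 6.58 and 8.85 to 9.93 CPM, and 1 marker could be tested, S100a8, which was higher with R848 than with IFN-α. The part of these markers in the member differences was not tested.

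All 8 genes had a RefSeq promoter window on GRCm38.p6, 11 windows in all, and the 250 bases before each start were searched on both strands for 4 motifs. The sequences of Il1a and Il1b are shown because those genes differed most between R848 and IFN-α, and that of Il1rn because it differed most between the combined group and R848. Capitals mark an AP-1 motif, TGANTCA, the site of Fos and Jun proteins. For Il1a only the last 30 bases before the start are shown, chr2:129309973-129310002 on the minus strand. For Il1b the stretch is chr2:129371140-129371389 on the minus strand, and for the first Il1rn start it is chr2:24336610-24336859 on the plus strand.
Il1a: taaaaaggcagagaagccTGACTCAgactt
Il1b: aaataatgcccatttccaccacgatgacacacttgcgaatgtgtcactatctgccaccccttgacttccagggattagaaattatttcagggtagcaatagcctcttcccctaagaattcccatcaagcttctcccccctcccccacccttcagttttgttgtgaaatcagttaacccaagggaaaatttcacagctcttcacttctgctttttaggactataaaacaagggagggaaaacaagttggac
Il1rn: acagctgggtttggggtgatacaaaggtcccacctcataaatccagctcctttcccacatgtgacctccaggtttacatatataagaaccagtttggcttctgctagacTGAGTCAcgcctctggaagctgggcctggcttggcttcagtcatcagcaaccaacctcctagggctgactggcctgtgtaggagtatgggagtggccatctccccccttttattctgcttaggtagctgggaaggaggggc
The Il1a match lay 12 to 6 bases before the start and the Il1rn match 141 to 135 bases before it. The windows of the later Il1rn starts, chr2:24345291 and chr2:24345371, held no match to any of the 4 motifs. Counts per gene do not tell which start was used. An AP-1 motif occurred in 6.75% of 32851 windows of all genes. An NF-κB motif was found in 3.90% of those windows, the core of the ISRE, the element bound by interferon-activated factors, in 2.98%, and the GAS motif TTCNNNGAA, bound by STAT dimers, in 7.02%. Among the members, an NF-κB match stood before the second start of Il1r1 and a GAS match before Il1r2. No match to any of the 4 motifs lay in these windows of Il1b, Il18, Il18bp or Il1rap, which says only that these letters are not in this stretch.

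Of the 8 members 7 had enough counts for the test, edgeR's quasi-likelihood F test with Benjamini-Hochberg adjustment over 11002 genes and a threshold of 0.05. Between R848 and IFN-α, 6 of 7 passed, 4 of them higher with R848 and 2 lower, where 37.4% of all tested genes passed, 18.4% higher and 19% lower. Set against R848, the combined group differed in 4 of 7, all higher in the combined group, where 35.9% of all genes passed and 19.2% were higher. Set against IFN-α, 6 of 7 were higher, where 33.2% of all genes passed and 18.5% were higher. The median log2 difference of the 7 members was 0.88, 0.87 and 1.29 in these comparisons, beside 0.02, -0.03 and -0.01 for all genes tested. Il1a, Il18, Il1rn and Il18bp were higher in the combined group than with either agent alone, 4 of 7 members beside 9.24% of all tested genes. The members, and the pathway list given below, were chosen with earlier results of these data known. Counts of calls set beside the shares of all genes are therefore description only.

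**Figure D1:**
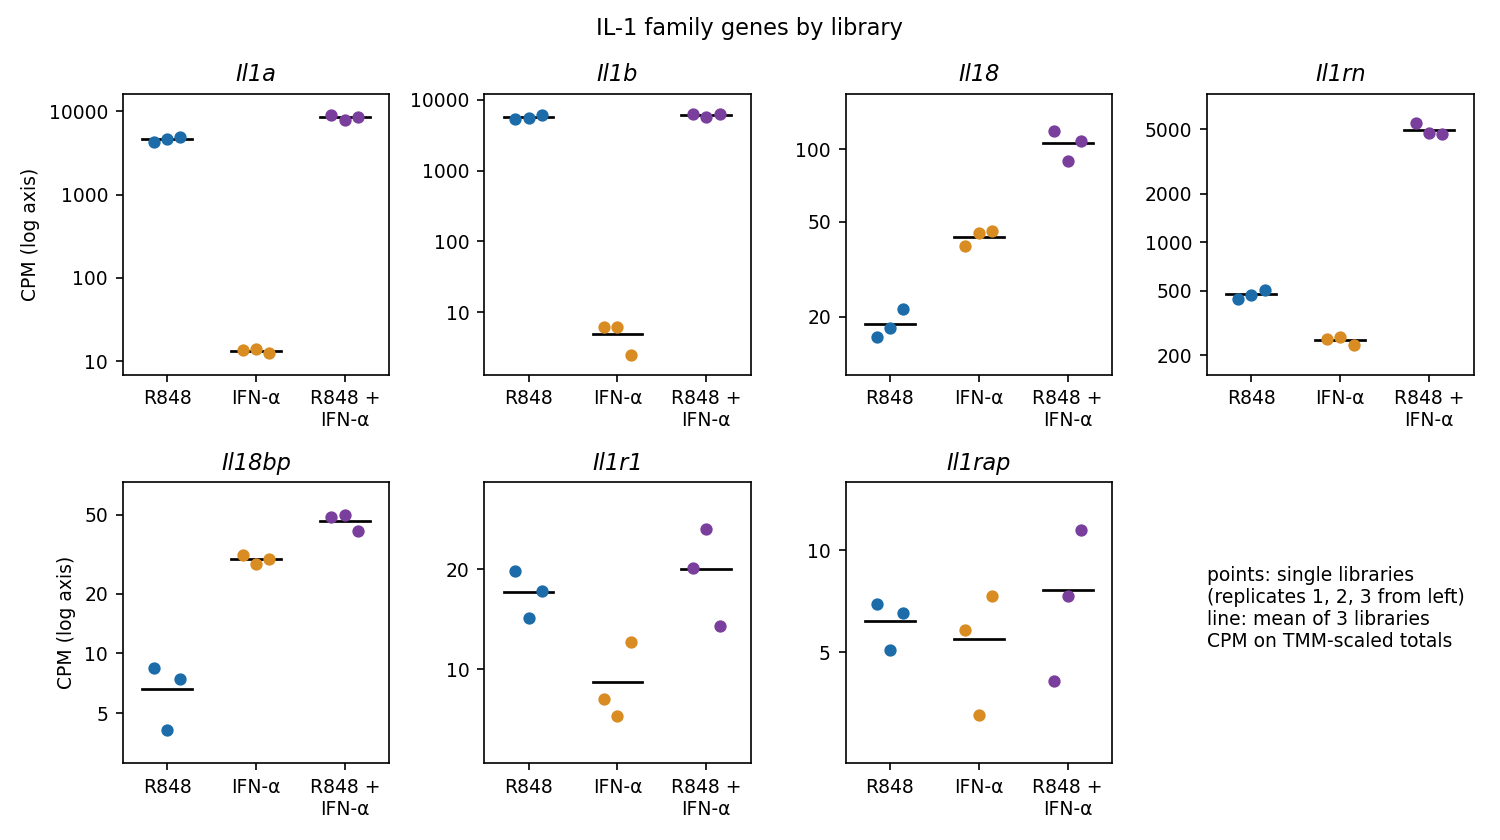
Level of the 7 tested IL-1 family genes in each library, in CPM on a log axis that differs between panels, for R848, IFN-α and the combined group, with points for single libraries and lines for means of 3. Il1a and Il1b sit near the floor of their panels with IFN-α alone, Il1rn stands apart in the combined group, and Il18 and Il18bp have their lowest levels with R848 and their highest in the combined group.

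Il1a and Il1b, the genes for the ligands of IL-1R1, were among the most abundant mRNAs with R848 and scarce with IFN-α alone. Il1a (chr2:129299610-129309972, minus strand, GENCODE vM21 on GRCm38, as for all genes below) stood at 4317, 4640 and 4903 CPM in the R848 libraries, at 13.6, 14.1 and 12.4 CPM in the IFN-α libraries, and at 9033, 7798 and 8539 CPM with both agents. The 3 groups did not overlap, and every combined library lay above every R848 library. Il1a was 346-fold higher with R848 than with IFN-α (log2 difference 8.43 ± 0.12 SE, edgeR adjusted p = 5.97e-30). With both agents it was 1.83-fold higher than with R848 (log2 0.87 ± 0.08, edgeR adjusted p = 1.31e-10) and 633-fold higher than with IFN-α (log2 9.31 ± 0.12, edgeR adjusted p = 1.35e-30). Scaled by library totals alone, a setting that moved the median of all genes by -0.39 between these groups, the log2 difference between the combined group and R848 was 0.48 (edgeR adjusted p = 0.00152).

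Il1b (chr2:129364570-129371139, minus strand) lies on the same stretch of chromosome 2 as Il1a. Its level was 5404, 5515 and 6147 CPM with R848, 6.19, 6.16 and 2.54 CPM in the IFN-α libraries, and 6351, 5668 and 6257 CPM with both. The R848 and combined libraries overlapped, and the IFN-α libraries lay far below both. The IFN-α values rest on 41 counts over 3 libraries (exact Poisson 95% interval 29.4 to 55.6, which covers counting error only). Il1b was 1165-fold higher with R848 than with IFN-α (log2 10.19 ± 0.15 SE, edgeR adjusted p = 2.37e-29) and 1247-fold higher with both agents than with IFN-α (log2 10.28 ± 0.16, edgeR adjusted p = 3.21e-29). Il1b differed between the combined and the R848 libraries by 0.10 ± 0.09 on the log2 scale, with a 95% interval of -0.08 to 0.27 and an edgeR adjusted p of 0.419. That interval holds no difference of the size seen for Il1a. Scaling by upper quartile or by library totals turned its sign, to -0.035 and -0.29, and neither passed the threshold.

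Because Il1a and Il1b were counted in the same libraries, their ratio is free of library scaling. The Il1a count was 0.799, 0.841 and 0.798 times the Il1b count in the R848 libraries and 1.42, 1.38 and 1.36 times in the combined libraries. Per kilobase of exon the ratio of Il1a to Il1b was 0.785 ± 0.024 (SD, n = 3) with R848 and 1.34 ± 0.03 (SD, n = 3) with both. So Il1b was the more abundant of the pair in every R848 library and Il1a in every combined library. Il1a also led with IFN-α alone, at 2.19, 2.29 and 4.88 times the Il1b count, on 41 Il1b counts over that group. The log2 ratio differed by 0.77, or 1.71-fold, between the combined group and R848. It differed from IFN-α by -1.80 with R848 and by -1.03 with both agents. Each had p = 0.1 in a two-sided exact permutation test, the smallest that 3 against 3 libraries allow (0.1125 adjusted over 9 ratio comparisons).

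Il18, the third ligand, followed another order. Its level (chr9:50554827-50581840, plus strand) was 16.5, 18.0 and 21.6 CPM with R848, 39.5, 44.9 and 45.5 CPM in the IFN-α libraries, and 119, 89.8 and 109 CPM with both. The groups did not overlap, with R848 lowest and the combined group highest. Il18 was 2.31-fold lower with R848 than with IFN-α (log2 -1.21 ± 0.16 SE, edgeR adjusted p = 1.40e-07). With both agents it was 5.67-fold higher than with R848 (log2 2.50 ± 0.14, edgeR adjusted p = 3.31e-15) and 2.45-fold higher than with IFN-α (log2 1.29 ± 0.13, edgeR adjusted p = 2.01e-09).

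Il1rn, which encodes the IL-1 receptor antagonist, had the largest difference of all members between the combined group and R848. The gene (chr2:24336853-24351494, plus strand) lies elsewhere on chromosome 2 than Il1a and Il1b, beside the IL-36 genes. Its level was 446, 474 and 509 CPM with R848, 252, 259 and 230 CPM in the IFN-α libraries, and 5472, 4767 and 4709 CPM with both. The groups did not overlap, and the lowest combined library stood far above the highest R848 library. Il1rn was 1.93-fold higher with R848 than with IFN-α (log2 0.95 ± 0.09 SE, edgeR adjusted p = 1.45e-10). With both agents it was 10.5-fold higher than with R848 (log2 3.39 ± 0.09, edgeR adjusted p = 1.46e-23) and 20.2-fold higher than with IFN-α (log2 4.33 ± 0.09, edgeR adjusted p = 3.00e-25).

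Il18bp, the IL-18 antagonist, was scarce with R848 and higher in both groups that had received IFN-α. It was measured (chr7:102014885-102018690, minus strand) at 8.39, 4.11 and 7.40 CPM with R848, at 31.4, 28.2 and 29.9 CPM in the IFN-α libraries, and at 48.9, 49.7 and 41.4 CPM with both. The groups did not overlap. Il18bp was 4.43-fold lower with R848 than with IFN-α (log2 -2.15 ± 0.21 SE, edgeR adjusted p = 4.59e-10) and 6.87-fold higher with both agents than with R848 (log2 2.78 ± 0.19, edgeR adjusted p = 4.42e-13). The excess of the combined group over IFN-α was smaller, 1.55-fold (log2 0.63 ± 0.16, edgeR adjusted p = 0.00209), and with library totals alone it was 0.32 with an edgeR adjusted p of 0.121, so that call did not hold.

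**Figure D2:**
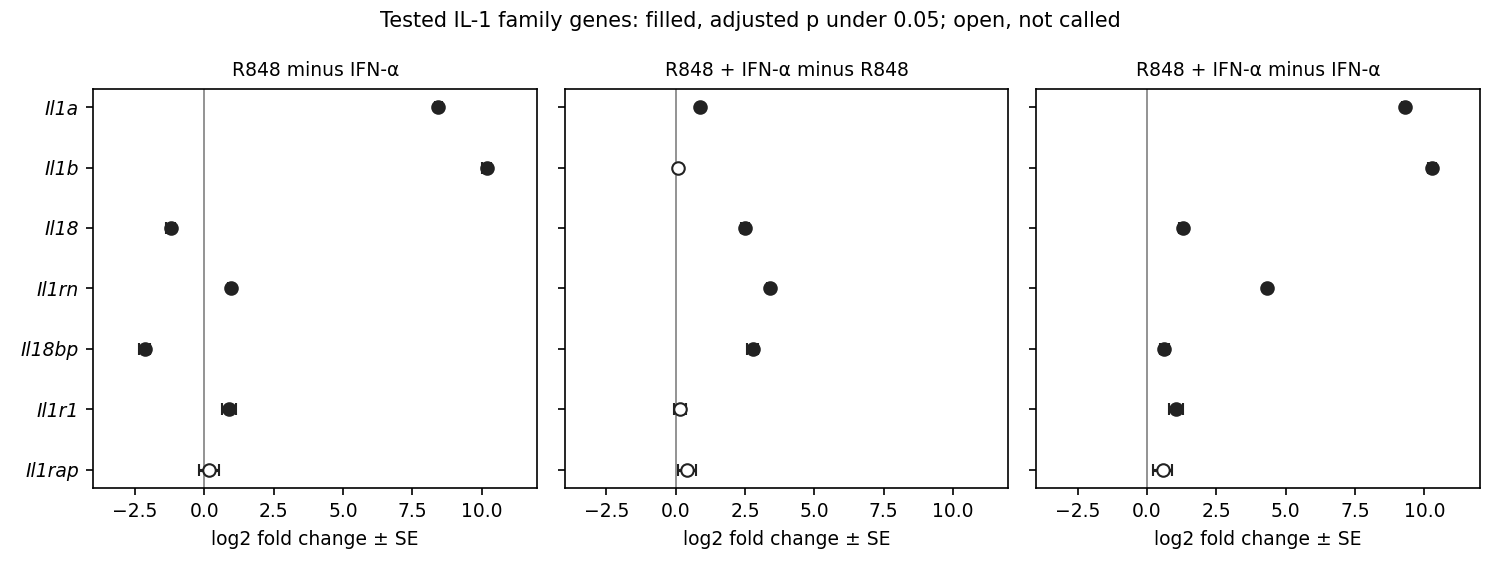
Log2 fold change with its standard error for the 7 tested members in the 3 comparisons, with filled points for an edgeR adjusted p under 0.05 and open points for genes not called. In the middle panel Il1b, Il1r1 and Il1rap are open, while Il1rn, Il18bp and Il18 lie between 2.50 and 3.39.

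The balance of antagonist and ligand mRNA was read from count ratios within each library. With R848 the Il1b count was 12.1, 11.6 and 12.1 times the Il1rn count in the 3 libraries. With both agents it was 1.16, 1.19 and 1.33 times the Il1rn count, and with IFN-α alone the Il1rn count was 40.7, 42.1 and 90.5 times that of Il1b. The order of the pair was thus the same in all libraries of a group, with Il1b ahead wherever R848 was given. Per kilobase of exon Il1b exceeded Il1rn 34.7 ± 0.8-fold (SD, n = 3) with R848 and 3.56 ± 0.26-fold (SD, n = 3) with both. Those lengths join all annotated exons, 1907 bases for Il1b and 5535 for Il1rn, and the length of the transcripts present was not measured. The log2 ratio of Il1rn to Il1b was 3.29 higher, or 9.76-fold, in the combined group than with R848, and it differed from IFN-α by -9.27 with R848 and by -5.98 with both agents. Each difference had p = 0.1 in the two-sided exact permutation test (0.1125 adjusted), the smallest this design allows.

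The second pair, Il18bp and Il18, had a narrower range of ratios. The Il18bp count was 0.509, 0.228 and 0.342 times that of Il18 with R848, 0.794, 0.629 and 0.657 times with IFN-α, and 0.411, 0.553 and 0.381 times with both. The R848 and combined libraries overlapped, and the IFN-α libraries lay above both. The log2 ratio differed by 0.35 between the combined group and R848 (p = 0.4, two-sided exact permutation test, 0.4 adjusted). It differed from IFN-α by -0.99 with R848 and by -0.64 with both agents, each with p = 0.1 (exact permutation test, 0.1125 adjusted). In all 9 libraries Il18 had more counts than Il18bp.

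**Figure D3:**
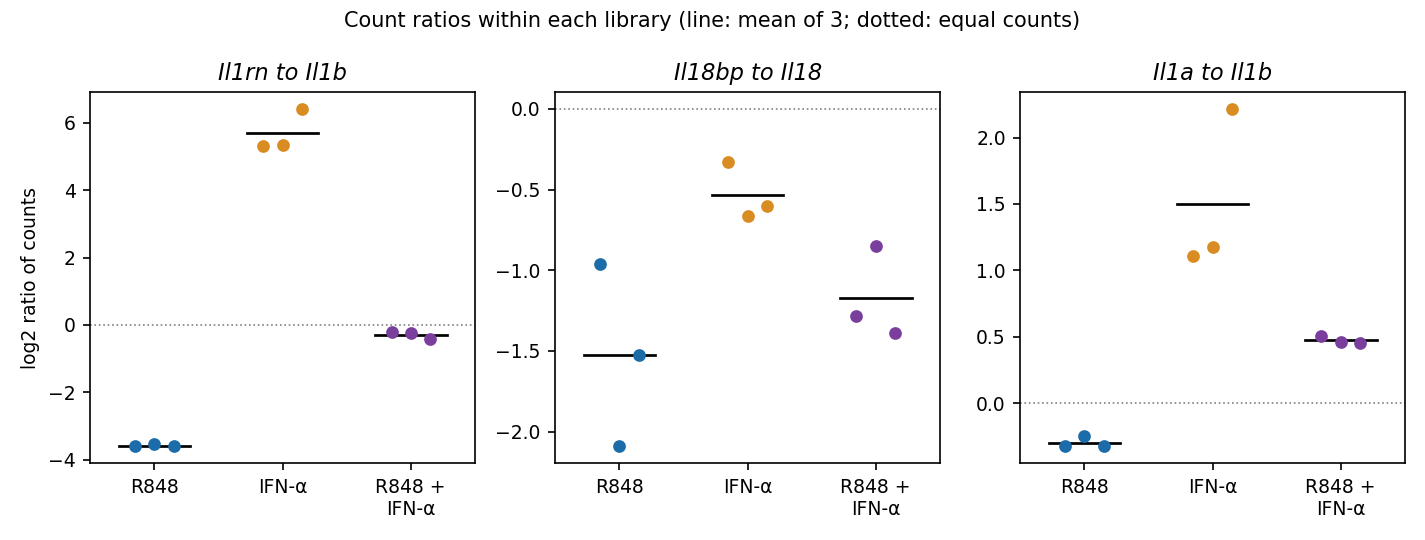
Log2 ratio of counts within each library for Il1rn to Il1b, Il18bp to Il18 and Il1a to Il1b, by group, with a line at the mean of 3 and a dotted line at equal counts. The Il1rn to Il1b ratio lies near -3.58 with R848, -0.29 with both agents and 5.69 with IFN-α, and the Il1a to Il1b ratio crosses equal counts between R848 and the combined group.

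The receptor chains were low in every group. Il1r1 (chr1:40225080-40317257, plus strand), which encodes the signalling receptor, stood at 19.7, 14.2 and 17.2 CPM with R848, 8.13, 7.24 and 12.1 CPM in the IFN-α libraries, and 20.2, 26.3 and 13.5 CPM with both. The IFN-α libraries lay below all others, and the R848 and combined libraries overlapped. Il1r1 was 1.84-fold higher with R848 than with IFN-α (log2 0.88 ± 0.25 SE, edgeR adjusted p = 0.00585) and 2.05-fold higher with both agents than with IFN-α (log2 1.04 ± 0.25, edgeR adjusted p = 0.00161). From R848 to both agents the difference was 0.16 ± 0.22 on the log2 scale (95% interval -0.28 to 0.59, edgeR adjusted p = 0.622). Its sign turned without combined replicate 2, to -0.071, and with library totals alone, to -0.22.

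Il1rap (chr16:26581704-26730117, plus strand), which encodes the shared accessory chain, was measured at 6.95, 5.06 and 6.52 CPM with R848, 5.81, 3.26 and 7.31 CPM in the IFN-α libraries, and 4.11, 7.34 and 11.5 CPM with both. All 3 groups overlapped. No comparison passed the test, with log2 differences of 0.17 ± 0.35, 0.40 ± 0.32 and 0.57 ± 0.34 SE and edgeR adjusted p of 0.762, 0.356 and 0.214, for R848 over IFN-α, both over R848 and both over IFN-α. The counts, 62, 47 and 85 per group, leave 95% intervals as wide as -0.53 to 0.86, -0.23 to 1.03 and -0.10 to 1.23. The first difference turned to -0.095 without IFN-α replicate 2 and the second to -0.13 without combined replicate 3.

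Il1r2 (chr1:40074079-40125231, plus strand), the decoy receptor gene, had 1 count in all, in IFN-α replicate 2, and was not tested. A count of 0 over a group allows a level of up to 0.300 CPM with R848 and 0.301 CPM with both, for counting error only. The decoy was therefore not detectable at this depth in the groups where its ligands Il1a and Il1b were highest.

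Levels can be compared between genes only per length, here in CPM per kilobase of union exon from GENCODE vM21. That length joins the exons of all annotated transcripts, which need not be those present, so the order below depends on it. With R848 the order was Il1b at 2983 ± 210 (SD, n = 3), Il1a at 2341 ± 149, Il1rn at 86.0 ± 5.7, Il18 at 18.2 ± 2.6, Il1r1 at 2.68 ± 0.43, Il18bp at 2.19 ± 0.74 and Il1rap at 0.54 ± 0.09. Il1r1 and Il18bp overlapped, and the other neighbours did not. Among 10635 tested genes with a length, Il1b ranked at place 10 and Il1a at place 12. With both agents Il1a stood at 4284 ± 315 (place 10), Il1b at 3195 ± 194 (place 13), Il1rn at 900 ± 77 (place 38), Il18 at 103 ± 14, Il18bp at 15.4 ± 1.5, Il1r1 at 3.14 ± 1.01 and Il1rap at 0.67 ± 0.32, with no overlap between neighbours. With IFN-α alone the antagonist came first, with Il1rn at 44.6 ± 2.7 and Il18 at 42.0 ± 3.2, which overlapped, then Il18bp at 9.86 ± 0.51, Il1a at 6.77 ± 0.44, Il1b at 2.60 ± 1.10, Il1r1 at 1.44 ± 0.40 and Il1rap at 0.48 ± 0.18. There Il1b and Il1r1 overlapped. Together Il1a, Il1b and Il1rn took 1.07 to 1.34% of all gene counts with R848, 1.51 to 1.85% with both and 0.0258 to 0.0308% with IFN-α.

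A list of 48 other IL-1 pathway genes held further ligands and receptors, genes that process the precursors and release the ligands, and genes that carry the receptor's signal. Of these 47 were in the count tables and 34 could be tested. Between R848 and IFN-α, 23 of 34 passed the test, beside 37.4% of all genes, 9 of them higher with R848 and 14 lower. Of all tested genes 18.4% were higher with R848 and 19% lower. Processing and release genes were mostly lower with R848, 12 of 16 against 1 higher. Casp1, the protease that cuts pro-IL-1β and pro-IL-18, was at 61.5 ± 5.6 CPM (SD, n = 3) with R848 and 159 ± 14 with IFN-α, a log2 difference of -1.37 ± 0.11 SE (edgeR adjusted p = 2.98e-12). Aim2, a DNA sensor that builds inflammasomes, differed by -2.97 ± 0.12 and Casp8 by -2.17 ± 0.13. Pycard, the adaptor between sensors and caspase-1, differed by -1.72 ± 0.17, Gsdmd, whose product forms the pore through which IL-1β leaves, by -1.16 ± 0.13, and Casp4, a sensor of cytosolic lipopolysaccharide in mice, by -0.85 ± 0.10. The exception was Nlrp3, the inflammasome sensor that TLR signals induce, at 367 ± 52 CPM with R848 and 8.85 ± 0.86 with IFN-α (log2 5.37 ± 0.14, edgeR adjusted p = 1.23e-23). Of 16 signalling genes 8 were higher with R848 and 2 lower. The largest differences among them were those of Irak3, whose product restrains IRAK signalling, at 212 ± 6 against 5.50 ± 1.31 CPM (log2 5.28 ± 0.16), Nfkbiz, an atypical IκB protein, at a log2 difference of 4.47 ± 0.10, Nfkbia, which encodes IκBα, at 3.27 ± 0.10, and the ribonuclease gene Zc3h12a at 2.87 ± 0.14. Myd88, the adaptor of IL-1 receptors, was lower with R848 (-0.42 ± 0.09, edgeR adjusted p = 0.000525).

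Pydc4 and Pydc3 encode small PYRIN-domain proteins of a gene family of close copies, so that their counts are uncertain. Pydc4 had 0 counts with R848, 105 with IFN-α and 79 with both. Set against a floor of 3 counts over the R848 group, it was at least 41.2-fold higher with IFN-α and at least 26.4-fold higher with both. Pydc3 had 2 counts with R848, 310 with IFN-α and 272 with both, ratios of 182 (counting interval 50.1 to 1513) and 136 (37.4 to 1132). Both of those R848 counts lay in replicate 3. Against the other 2 R848 libraries, which held 0 and were set together to a floor of 3 counts, Pydc3 was at least 80.5-fold higher with IFN-α and at least 60.2-fold higher with both. Both genes were thus present wherever IFN-α was given.

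With both agents, 17 of 34 genes of this list were higher than with R848 and 6 lower, where 19.2% of all tested genes were higher and 16.7% lower. Processing genes were mostly higher, 10 of 16 against 1 lower, and signalling genes divided into 5 higher and 5 lower. Casp1 stood at 272 ± 14 CPM (SD, n = 3) with both agents, a log2 difference of 2.14 ± 0.10 SE from R848 (edgeR adjusted p = 5.41e-17). Aim2 was higher by 3.23 ± 0.12, Casp4 by 1.94 ± 0.10, Casp8 by 1.65 ± 0.13, Gsdmd by 1.22 ± 0.13 and Nlrp3 by 0.81 ± 0.09, so the genes for a sensor, a protease and the pore were each above their level with R848. Myd88 was higher by 1.64 ± 0.09 (348 ± 11 CPM), whereas Irak3 was lower by 1.54 on the log2 scale, at 73.1 ± 9.1 CPM (-1.54 ± 0.11, edgeR adjusted p = 2.95e-13).

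Il33, an alarmin of the IL-1 family, and Il1rl1, its receptor, were the other ligand and receptor of the list with enough counts. Il33 was at 15.6 ± 5.0 CPM with R848, 10.5 ± 2.7 with IFN-α and 27.0 ± 8.1 with both (SD, n = 3), and was higher in the combined group than with R848 (log2 0.84 ± 0.22 SE, edgeR adjusted p = 0.00408) and than with IFN-α (1.42 ± 0.25, edgeR adjusted p = 3.98e-05). Il1rl1 was at 2.62 ± 1.07, 1.93 ± 1.09 and 5.61 ± 0.37 CPM, higher in the combined group by 1.08 ± 0.39 (edgeR adjusted p = 0.0311) and 1.46 ± 0.43 (edgeR adjusted p = 0.00857). The Il33 call against R848 was lost without combined replicate 3 (0.53, edgeR adjusted p = 0.120) and with library totals alone (0.43, edgeR adjusted p = 0.0864). The Il1rl1 call against R848 was lost in 8 alternatives, 5 of them the omission of R848 replicate 1 or 2 or of any combined library, and the call against IFN-α was lost without IFN-α replicate 1 or 2 (1.22 and 1.29, edgeR adjusted p = 0.0520 and 0.0502). The summed astrocyte markers stood at 1693 to 1970 CPM with R848 and 2616 to 3661 with both. Most of that sum came from Gfap (mean 897 CPM with R848, 750 with IFN-α and 1418 with both) and Aqp4 (494, 280 and 1048). Between R848 and IFN-α the list was divided, with 3 of 11 astrocyte markers called higher with R848 and 4 lower. Fibroblast markers summed to 136 to 180 CPM with R848, 109 to 143 with IFN-α and 149 to 251 with both, and of 7 tested the combined group had 2 above R848 and 3 above IFN-α, with 0 lower in either comparison. All 3 tested endothelial markers (Kdr, Flt1 and Cdh5) stood higher in the combined group than in the R848 group, and 1 was higher and 1 lower than with IFN-α. The rest of the 8 endothelial markers were near absent: Pecam1, Tek, Tie1, Cldn5 and Emcn had 8, 6, 5, 1 and 0 counts over all libraries. The part of these cell types in the differences of Il33 and Il1rl1 was not tested.

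**Figure D4:**
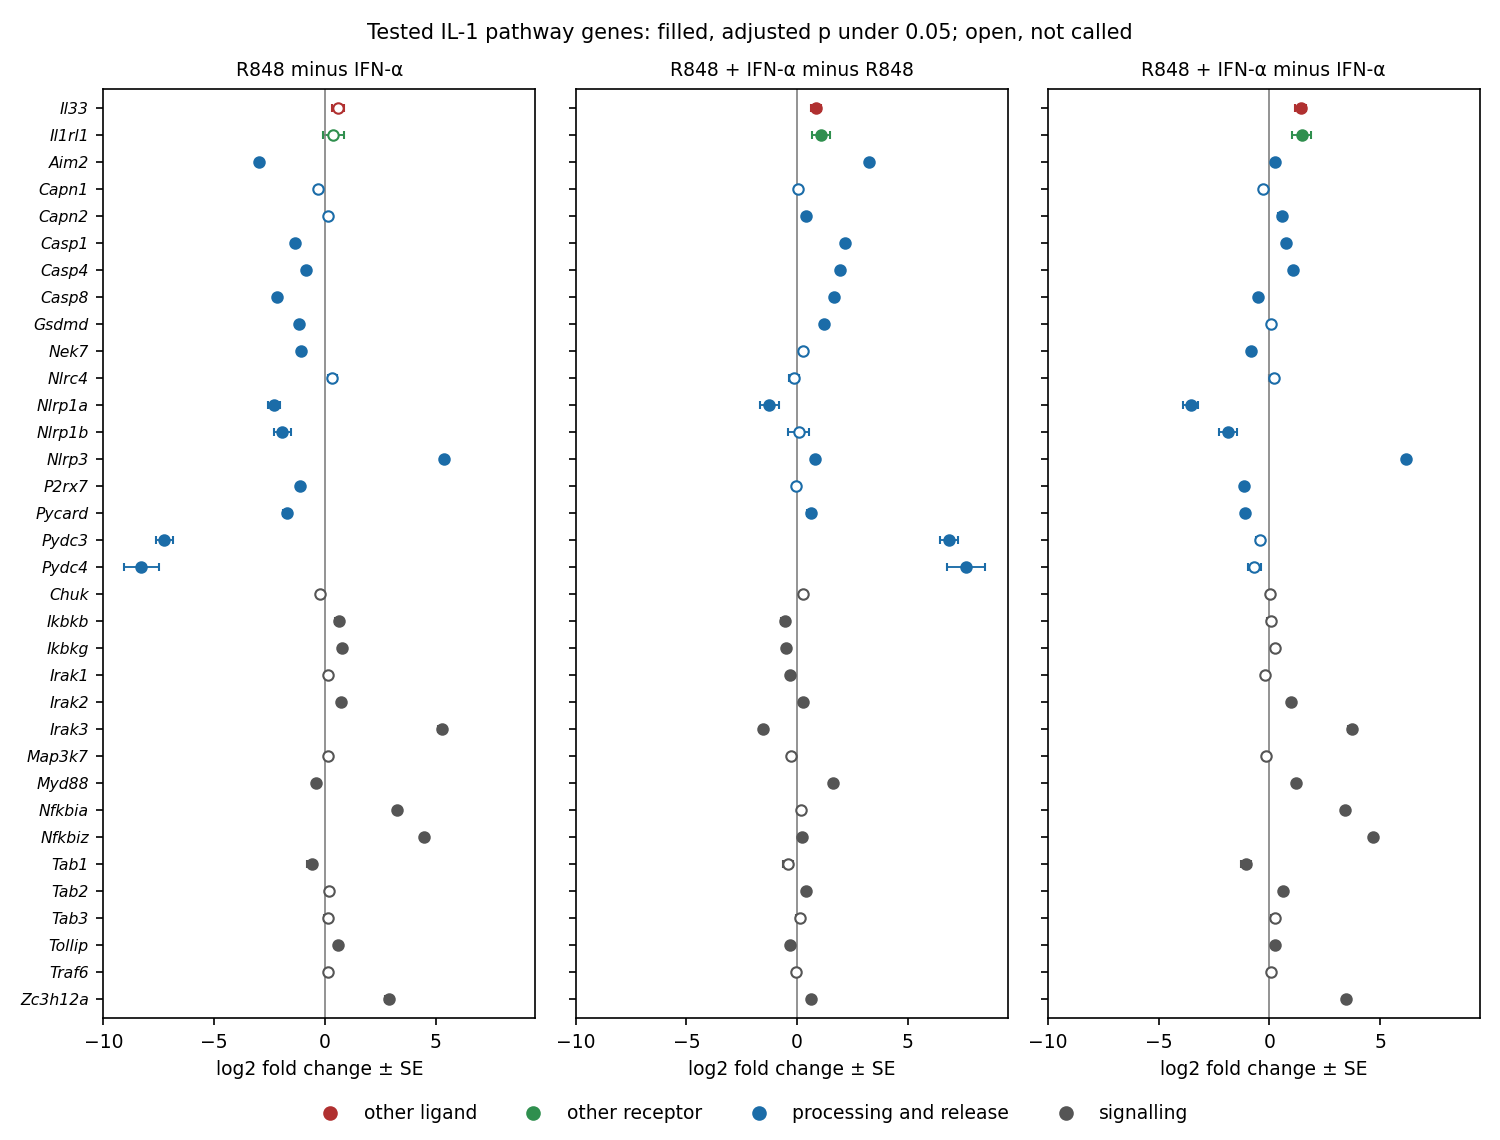
Log2 fold change with standard error of the 34 tested pathway genes in the 3 comparisons, coloured by role, filled where the edgeR adjusted p was under 0.05. Processing genes lie mostly left of 0 for R848 minus IFN-α and mostly right of 0 for the combined group minus R848, with Nlrp3 to the right in both, and the points of Pydc4 and Pydc3 in those panels rest on 0 and 2 counts with R848.

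Relative to IFN-α alone, 15 of 34 genes were higher in the combined group and 7 lower, with 5 higher and 6 lower of 16 processing genes and 8 higher and 1 lower of 16 signalling genes. Of all tested genes 18.5% were higher and 14.7% lower in that comparison. Nlrp3 was higher by 6.18 ± 0.14 on the log2 scale, Nfkbiz by 4.67 ± 0.10, Irak3 by 3.74 ± 0.17 and Zc3h12a by 3.48 ± 0.14. Casp4 was higher by 1.09 ± 0.09 and Casp1 by 0.77 ± 0.10, while Pycard (-1.10 ± 0.16), Casp8 (-0.52 ± 0.11) and Nlrp1a, an inflammasome sensor of another type (-3.55 ± 0.33), were lower with both agents. The comparisons with the combined group share its libraries and are not independent. The division into higher and lower depended on scaling: with upper-quartile factors the list held 13 higher and 8 lower against R848 and 13 higher and 9 lower against IFN-α, and with library totals alone 9 higher and 11 lower against R848 and 11 higher and 12 lower against IFN-α.

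The same setting moved the division over all genes. Between the combined group and R848, 2112 genes were higher and 1835 lower with TMM, 1715 and 2861 with upper-quartile factors, and 1173 and 4984 with library totals alone. Between the combined group and IFN-α, the counts were 2035 and 1617, 1697 and 2091, and 1044 and 3768. The 4 member calls against R848, all higher, were made under each of these settings.

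Genes whose level over the 9 libraries was most like that of a member were ranked among 9975 genes by the root mean square difference of log2 CPM after centring each gene. For Il1a the nearest was Il12b, a subunit of IL-12 and IL-23, at 0.37, with 248 CPM with R848, 0 with IFN-α and 248 with both. Its log2 level with IFN-α is therefore set by the prior count, and unlike Il1a it stood at the same level with R848 and with both agents. For Il1b it was Cxcl2, a neutrophil-attracting chemokine, at 0.68, with 3929, 1.86 and 1645 CPM. Cxcl2 was thus lower with both agents than with R848, where Il1b was not, and the likeness rests on the IFN-α group. For Il18 it was Rgs1, a regulator of G-protein signalling, at 0.11, with 106, 229 and 598 CPM. For Il1rn the nearest were Mab21l3 at 0.289, Ccl2, a monocyte-attracting chemokine, at 0.292, and the collagenase gene Mmp13 at 0.294. Mab21l3 stood at 0.70, 0.11 and 11.8 CPM, so it met the minimum level through the combined group alone, and its place rests in part on the prior count. Mmp13 stood at 391, 259 and 6698 CPM and Ccl2 at 328, 140 and 2205 CPM. For Il18bp the nearest were Papd7 at 0.233, D1Ertd622e at 0.236 and Cd274, which encodes PD-L1, at 0.236, the last with 368, 1652 and 2704 CPM. For Il1r1 and Il1rap the nearest were Ppp1r18 at 0.232 and Nrxn3 at 0.163, both over a narrow range of levels.

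Strand mattered for Il1a. Its gene overlaps Gm14023 on the opposite strand (chr2:129297370-129307826, GENCODE vM21), and the deposited unstranded count at Il1a was 77.0 to 79.4% of the reverse-strand count in the R848 and combined libraries. At Il1b the unstranded count was 100.1 to 100.3% of it. With unstranded counts the member calls had the same directions in all 3 comparisons.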

How the data were processed

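Ribosomal RNA was removed and paired-end directional libraries were sequenced, per the labels' protocols. The authors deposited raw counts per gene for each library, in unstranded, forward and reverse columns, as STAR writes them. The submitters' processing notes name CASAVA 1.8.2, Trimmomatic 0.33, STAR 2.5.1, DESeq2 and build mm10, and the annotation was not given in the sources used here. Reverse-strand counts were used, since under 2% of counts lay on the forward strand, and 39.3 to 44.4% of reads fell in no gene. Genes were filtered (filterByExpr, minimum count 10, minimum total 15), scaled by TMM and tested with edgeR 4.0.16 in R 4.3.3, all 9 libraries and 3 groups in one fit, 11002 genes. On simulated counts, false calls made up more than the threshold share in 2 of 3 comparisons. Ratios within libraries used an offset of 0.5 counts and exact permutation tests (scipy 1.17.1). CPM is not given by the authors but computed here. Genes of the 48-gene pathway list were named by rule: up to 4 called genes per comparison with the largest difference, and those needed to say which of a role moved. The members and lists were chosen with earlier results of these data known. Likeness to other genes was taken over genes of at least 5 CPM in a group. Alternatives covered 19 settings of scaling, filter, test, strand, block and omitted library, with DESeq2 1.42.0 among them.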

Additional observations from a re-analysis of the deposited data

Results flagged for a closer look

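Forward-strand counts, which the comparisons do not use, were present at the 3 most abundant members. Over the 9 libraries they came to 458 at Il1a, 208 at Il1b and 215 at Il1rn, above the limit that a count of 0 allows. At Il1b they made up 0.130 to 0.326% of the stranded counts with R848, 0.0533 to 0.212% with both agents and 0% with IFN-α. At Il1rn they made up 0.138 to 1.21% with IFN-α, and at Il1a 0.188 to 0.497% with both agents. Over all genes the forward strand held 1.09 to 1.50% of counts. At Il1a the share reached 7.89% in an IFN-α library, but the 3 IFN-α libraries held 4 forward-strand counts at that gene in all.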

How the results depend on the processing

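Of 396 fold changes of members under alternatives, 389 had the direction and side of the threshold of the reported value, and 7 did not. Il18bp between the combined group and IFN-α lost its call with library totals alone (0.32, edgeR adjusted p = 0.121, against a range of 0.000243 to 0.121 over its alternatives). The other 6 were reversals of differences that were not called: Il1b (-0.035 with upper-quartile factors, -0.29 with library totals) and Il1r1 (-0.22 with library totals, and -0.071 to 0.44 over omitted libraries, the lowest without combined replicate 2) between the combined group and R848, and Il1rap (-0.13 to 0.67 over omitted libraries, the lowest without combined replicate 3, and -0.095 to 0.46 for R848 against IFN-α, the lowest without IFN-α replicate 2). With library totals alone 6157 genes differed between the combined group and R848, 1173 higher and 4984 lower. Leaving out each library in turn gave 6, 4 and 6 members called for R848 against IFN-α, both against R848 and both against IFN-α, with 22 to 26, 16 to 22 and 19 to 26 pathway genes and 3658 to 4253, 3213 to 4070 and 3029 to 4221 genes in all.

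Replicate numbers did not pair the libraries: same-numbered deviations correlated between -0.10 and 0.06 over 9 pairs, 0 of them above 0.1, and 3 of 9 libraries matched their own number best. With the replicate number as a block, 6, 4 and 6 members and 4147, 3995 and 3701 genes were called. The ratio of Il1r2 to Il1r1 was not run, since Il1r2 had 1 count. Depth limits Il1r2 (1 count), Il1rap (47 to 85 counts per group), Il1b with IFN-α (41), Il18bp with R848 (67) and Il1r1 with IFN-α (79), and without the untreated group no change from rest is measured.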

Other observations

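The IL-36 branch of the family lay below the count filter and was looked at after its values were seen. Il36a, an IL-36 ligand gene near Il1rn, had 44 counts in the combined group, 3 with R848 and 0 with IFN-α, a ratio of 14.7 over R848 (counting interval 4.71 to 74.0) and at least 12.5-fold over IFN-α, whose 3 libraries together were set to a floor of 3 counts. With no count filter its edgeR adjusted p against R848 was 2.27e-06. Il1rl2, the IL-36 receptor gene, went the other way, with 2 counts with both agents, 35 with R848 and 13 with IFN-α. The ratio of R848 to the combined group was 17.5 (counting interval 4.48 to 150, edgeR adjusted p = 7.46e-06 with no filter). Adjusted p-values from the fit with no filter, in this section, are not on the scale of the main test. For Il18 between R848 and IFN-α that fit gave an edgeR adjusted p of 1.80e-13, against 1.40e-07 with the filter. Il36g, another IL-36 ligand gene, did not follow Il36a, with 13 counts with R848, 0 with IFN-α and 5 with both. Its ratio of the combined group to R848 was 0.386 (counting interval 0.108 to 1.15). Il36b had 0 counts in every group, and Il36rn had 1 count with R848 and 0 in the other groups. Il18rap, a chain of the IL-18 receptor, had 4 counts with R848, 32 with IFN-α and 16 with both, while its partner Il18r1 had 0, 4 and 2. Sigirr, an inhibitory receptor of the family, had 0 counts in all libraries.

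Il1bos, annotated antisense to Il1b, had 21 reverse-strand counts with R848, 1 with IFN-α and 61 with both, where Il1b itself was not called different between R848 and the combined group. The ratio of the combined group to R848 was 2.91 (counting interval 1.75 to 5.04, edgeR adjusted p = 0.00255 with no filter). Il1b had 56858, 41 and 61245 reverse-strand counts in these groups. Its forward-strand counts, on the strand of Il1bos, were 116, 0 and 92. Whether reads of Il1b placed on the wrong strand made up the Il1bos counts was not tested. Gm14023, opposite Il1a, had 41, 2 and 100, beside 46141, 113 and 84708 counts of Il1a itself. In the combined libraries its counts were 13, 11 and 76, so most lay in replicate 3, the deepest library. Scaled for depth, its level there was 4.86, 4.75 and 15.3 CPM, still highest in replicate 3. Forward-strand counts at Il1a, on the strand of Gm14023, were 156, 4 and 298 by group, and 52, 34 and 212 in the combined libraries. Whether reads of Il1a placed on the wrong strand made up the Gm14023 counts was not tested.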
